A study of Ipomoea batatas with 12 samples.

Results

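Skin of sweetpotato (Ipomoea batatas) storage roots was compared between a natural mutant, MT, and the wild-type line it arose from, M1-125 or WT. The comparison took the 3 MT skin and 3 WT skin RNA-seq libraries, 6 of the 12 in the series, chosen by their titles; the other 6 are flesh of the same 2 lines. Both lines grew in the field under the treatment labelled normal, and roots were sampled at 120 days after planting. The sources used here give neither the lesion of MT nor the skin colour of either line. The design speaks of biological replicates without naming separate plants, so p-values measure the spread between these libraries, which may be partly technical. Of 225111 genes in the count table, 80351 passed the filter on low counts and were tested, and 1228 of these had no count in any skin library.

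The skin of a storage root is a periderm, a layered tissue whose outer cork cells carry suberin in their walls and whose cells can store anthocyanins, the red to purple flavonoid pigments. Anthocyanin genes in plants are switched on by complexes of MYB, bHLH and WD40 proteins, and the title of the series asks for regulators of skin colour. Sweetpotato is a hexaploid, so most genes are present as several near-identical copies. Identifiers in the table carry a number, a letter and a running number. These were taken to stand for a chromosome, for its haplotype copy and for the position in gene order. The table has no coordinates to check that reading. The files do not pair identifiers with gene names, and 0 entries of the reference table from another assembly carried them. Pigment or cork genes were therefore not picked out, and the tissue label was not checked against named markers. How reads were divided among copies is not stated, so the value of any single identifier is uncertain to that extent.

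The skin libraries held between 8.51 M and 15.1 M counts (M, 1e6 counts), on average 11.6 M ± 3.01 M in WT and 9.76 M ± 1.14 M in MT (SD, n = 3). WT skin replicate 2 was the deepest, and without it WT skin averaged 9.88 M. Library pairs of a group differed by 5.53 to 6.35 times the variance of sampling noise (chi-square per degree of freedom), so none was counted as a repeat deposit of another. A set of 415 flesh-dominant genes, at least 10 CPM in flesh of both lines and at least 30-fold above skin, made up 0.0347% ± 0.00188 of WT skin counts (SD, n = 3). In MT skin the share was 0.0421% ± 0.00193. The part of this small difference in the results below was not tested. CPM stands for counts per 1e6 counts after TMM scaling, and the level of a gene is given as CPM per kb of its deposited length.

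In the mutant skin, many genes moved a little and a smaller set moved far, mostly downward. Of the 80351 genes, 5502 passed edgeR's quasi-likelihood test at an adjusted p under 0.05, which is 6.85% of those tested, with 2923 higher (3.64%) and 2579 lower (3.21%) in MT. Among the rises the median was 1.68-fold, the central part ran from 1.43-fold to 2.25-fold (25th to 75th percentile), and the 90th percentile was 3.58-fold. Among the falls the median was 2.12-fold, with 1.57-fold and 4.1-fold at the same quartiles and 9.58-fold at the 90th percentile. Changes of at least 4-fold numbered 234 among the rises and 665 among the falls, whereas changes under 1.5-fold numbered 981 and 506. In these sizes the 200 called genes with 0 counts in a group, 55 in WT and 145 in MT, stand at their lower bound, computed against 3 counts over the 3 libraries of that group. The sizes also pool genes of all levels. At equal abundance the falls exceeded the rises only slightly among abundant genes. Their medians were 1.64-fold against 1.59-fold at 10 to 30 CPM per kb, and 1.35-fold against 1.34-fold at 300 or more. At 0.3 to 1 CPM per kb the falls were steeper, at 5.94-fold against 4.47-fold, and made up 314 of the 446 calls.

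The balance of directions depended on the scaling, and the number of calls on the number of skin libraries. With library totals in place of TMM, 45.7% of calls were higher against 53.1%, and the median of all genes moved from 0 to -0.04 on the log2 scale. Without WT skin replicate 2 the test called 3583 genes, 1912 higher and 1671 lower, and leaving out any other single skin library gave 3903 to 4490 calls.

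**Figure D1:**
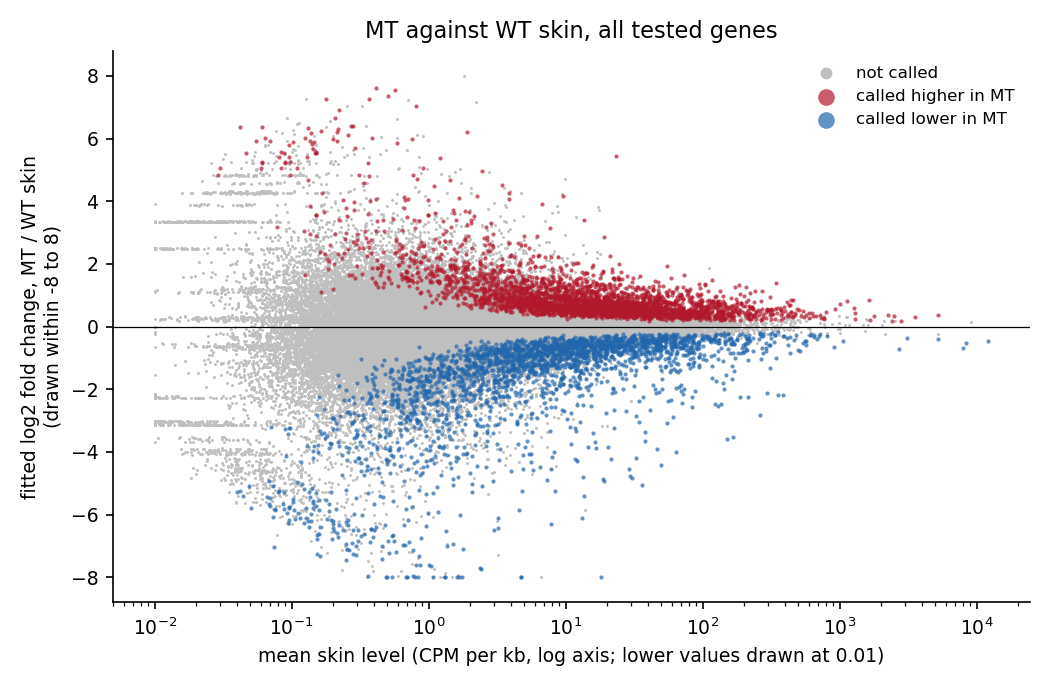
Fitted log2 fold change of MT over WT skin (vertical axis) against the mean skin level in CPM per kb (horizontal log axis) for the 80351 tested genes; red points were called higher in MT, blue points lower and grey points were not called. Called changes narrow towards 0 as the level rises, and the far falls below -2 outnumber the far rises. Fitted values of genes with a group at 0 counts depend on the prior count of the fit.

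The share of genes called climbed steeply with abundance, while the size of the called changes shrank. Among the 10322 genes under 0.3 CPM per kb, 2.28% were called. That share was 6.98% of the 19123 genes at 3 to 10 CPM per kb, 30.4% of the 3264 at 30 to 100, and 55.9% of the 202 at 300 or more. Over these same classes the median called change went from 5.57-fold to 1.9-fold, 1.48-fold and 1.35-fold. In the lowest class 132 of the 235 calls had a group at 0 counts, so that median rests on bounds. The calls among scarce genes also depended on taking all 12 libraries into the filter and the fit. With the skin libraries alone, filtered and fitted by themselves, 4 genes were called in the lowest class in place of 235. At 0.3 to 1 CPM per kb 143 were called in place of 446. The filter on skin alone kept 58622 genes in place of 80351, so scarce genes were partly lost before the test. The parts of the filter and of the fit were not separated. Among abundant genes small differences passed the test. The 10th percentile of called changes was 1.18-fold at 300 CPM per kb or more, against 2.98-fold in the lowest class. Of the 113 called genes in the highest class, 5 were at least 2-fold apart, 1 higher and 4 lower in MT. That was 4.4% of the calls in this class, against 42.1% of the calls over all classes. As a share of all tested genes, 2.88% were called and at least 2-fold apart.

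In the main edgeR fit scarce transcripts were called lower in MT more often than higher, and abundant ones the other way round. At 0.3 to 1 CPM per kb 132 genes rose and 314 fell, so 29.6% of calls were rises. At 3 to 10 CPM per kb 685 rose and 649 fell, and at 30 to 100 CPM per kb 631 rose and 362 fell, or 63.5% rises. From 10 CPM per kb upward rises made up 61.1% to 65.5% of calls in every class. The middle class at 3 to 10 CPM per kb turned with the scaling, from 51.3% rises to 42.7% with library totals alone. The other classes kept their side, and those from 10 CPM per kb upward ran from 52.6% to 58% under that scaling. By DESeq2 rises were 47.8% of calls under 0.3 CPM per kb (151 against 165 falls) and 36.3% at 0.3 to 1. With the skin libraries alone they were 37.8% at 0.3 to 1 and 47.7% at 1 to 3 (188 against 206). Classed by CPM without length, DESeq2 called 79 rises and 57 falls under 0.3 CPM, so the excess of falls there depended on the method. Without WT skin replicate 2, when the groups averaged 9.88 M and 9.76 M counts, rises were 34.3% of calls at 0.3 to 1 CPM per kb, 49.4% at 3 to 10 and 62.7% at 30 to 100.

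The spread between libraries followed abundance in both lines. The median SD of log2 CPM within WT skin fell from 0.67 under 0.3 CPM per kb to 0.10 at 30 to 100 and 0.065 at 300 or more (n = 3). In MT skin it fell from 0.79 to 0.11 and 0.048. MT libraries thus varied more than WT libraries among scarce genes and less among the most abundant. On average WT skin was read more deeply, at 11.6 M against 9.76 M counts. The part of depth in the contrast among scarce genes was not tested. The typical difference between the lines, called or not, was 0.86 on the log2 scale under 0.3 CPM per kb and 0.29 at 300 or more, so the gap between line difference and library spread opened with level. The 3 MT and 3 WT libraries did not overlap in 10.2% of genes in the lowest class and in 76.7% in the highest, against 22.5% of all tested genes. Of the 5502 called genes, 5401 did not overlap.

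**Figure D2:**
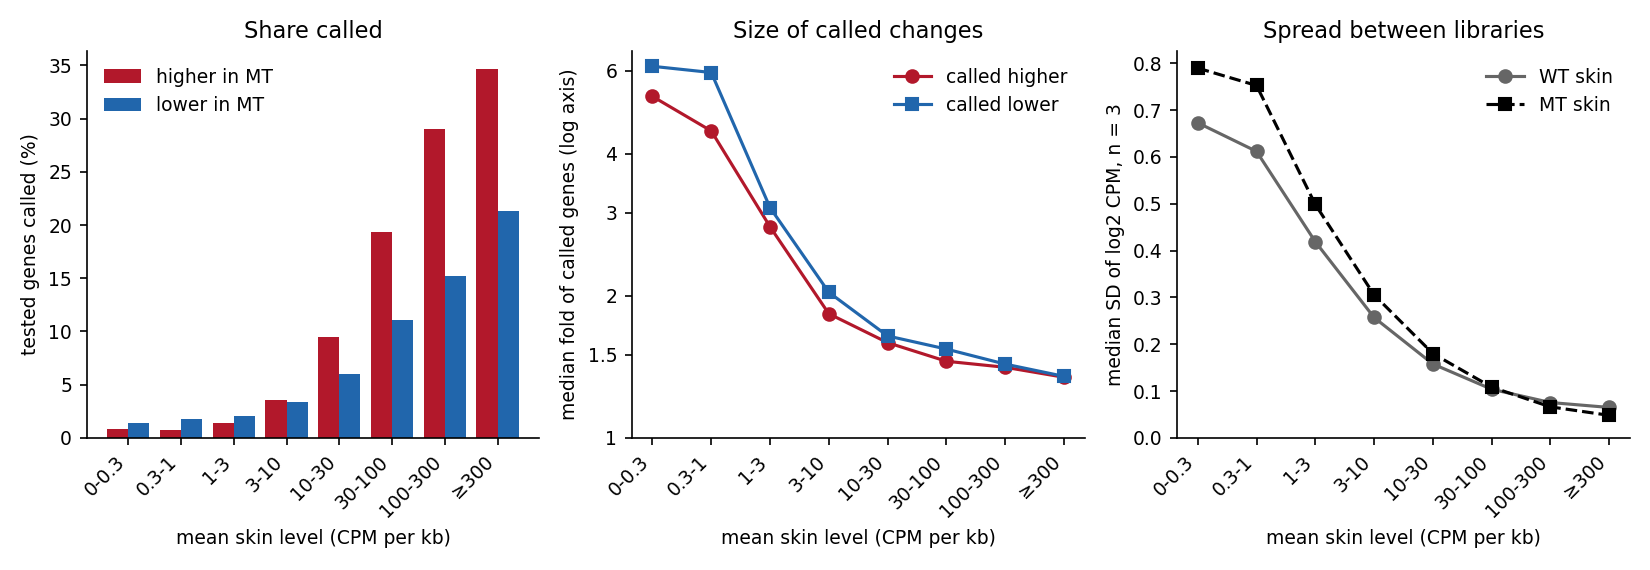
For 8 classes of mean skin level (CPM per kb, horizontal axis), the left panel gives the percentage of tested genes called higher (red) and lower (blue) in MT, the middle panel the median fold of called genes on a log axis with genes at 0 counts at their bound, and the right panel the median SD of log2 CPM within each group of 3 libraries. The share called rises to 34.7% higher and 21.3% lower in the top class while the median fold falls to 1.34 and 1.35.

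The called genes also carried a large part of the messenger pool. The 2923 risen genes took 16.4%, 16.4% and 16.7% of counts in the WT skin libraries and 23.2%, 23.1% and 23.2% in the MT skin libraries. The 2579 fallen genes took 15.9%, 16.2% and 16.1% in WT and 9.89%, 9.97% and 10% in MT. These genes were chosen for their difference, which fixes the direction of these shares, and the sizes are a description. Genes not called held 67.4% ± 0.226 of WT counts (SD, n = 3), against 66.9% ± 0.0754 of MT counts. In each library the top 10 genes together took 6.2% to 6.42% of counts in WT skin and 5.14% to 5.22% in MT skin, and the top 100 took 14.3% to 14.7% and 13.7% to 13.9%. The number of genes that together held 50% of counts overlapped between the lines, at 2770 to 2904 in WT and 2747 to 2787 in MT. A set of 1347 skin-dominant genes, at least 10 CPM in skin of both lines and at least 30-fold above flesh, took 16.05% ± 0.11 of counts in WT skin and 13.97% ± 0.124 in MT skin. Of these genes 145 were called higher and 179 lower, 24.1% beside 6.85% of all tested genes, with a median log2 fold change of 0.01. The set starts at 10 CPM, and by CPM alone the shares called from there upward were 11.3% to 60.5%.

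The 2 largest falls in level were found in the most abundant transcripts of the skin. Ibat.Brg_v3.06CG006510, the most abundant tested gene in both lines, stood at 13560, 14290 and 14200 CPM per kb in WT skin and at 10210, 10260 and 10300 in MT skin. The groups did not overlap, the MT libraries lay closer together than the WT libraries, and the gene fell 1.37-fold. Ibat.Brg_v3.06DG005030 stood at 9416, 10090 and 9864 CPM per kb in WT skin and at 6039, 6152 and 6099 in MT skin, a fall of 1.61-fold. Both are skin genes, with 0.129 ± 0.167 and 1.12 ± 0.129 CPM per kb in WT flesh (SD, n = 3) and 0.159 ± 0.0166 and 1.41 ± 0.306 in MT flesh.

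By edgeR's quasi-likelihood test the log2 fold change was -0.45 for 06CG006510 (SE 0.11, adjusted p = 0.0227) and -0.68 for 06DG005030 (SE 0.06, adjusted p = 7.8e-06). The call of 06CG006510 was lost when any 1 of the 6 skin libraries was left out, with edgeR adjusted p from 0.0523 to 0.0811. Its log2 fold change stayed between -0.47 and -0.44 in those 6 fits. The call was kept under the other settings. With the skin libraries alone the edgeR adjusted p was 5.01e-07, and by DESeq2 it was 3.43e-32. By edgeR it was 0.000349 without WT flesh replicate 3 and 0.00152 without WT flesh replicate 2. Leaving out any other flesh library gave 0.0239 to 0.043. The gene had 2, 0 and 10 counts in WT flesh and 4, 5 and 4 in MT flesh. The part of these low counts in the adjusted p was not tested.

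The 2 largest rises were found in genes that were abundant in skin of both lines and far more abundant in MT flesh than in WT flesh. Ibat.Brg_v3.01CG002060 stood at 4332, 4492 and 4958 CPM per kb in WT skin and at 6044, 5822 and 5947 in MT skin, a rise of 1.29-fold. Its flesh libraries held 4, 7 and 3 counts in WT against 2944, 2671 and 2471 in MT. Ibat.Brg_v3.04DG008900 stood at 3043, 3037 and 3409 CPM per kb in WT skin and at 3946, 3887 and 3960 in MT skin, a rise of 1.24-fold. In flesh it went from 37.8 ± 0.224 CPM per kb in WT to 769 ± 24 in MT (SD, n = 3). In skin the libraries of the groups did not overlap for either gene.

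By edgeR's quasi-likelihood test the log2 fold change in skin was 0.37 for 01CG002060 (SE 0.06, adjusted p = 0.00147) and 0.31 for 04DG008900 (SE 0.04, adjusted p = 0.000621).

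**Figure D3:**
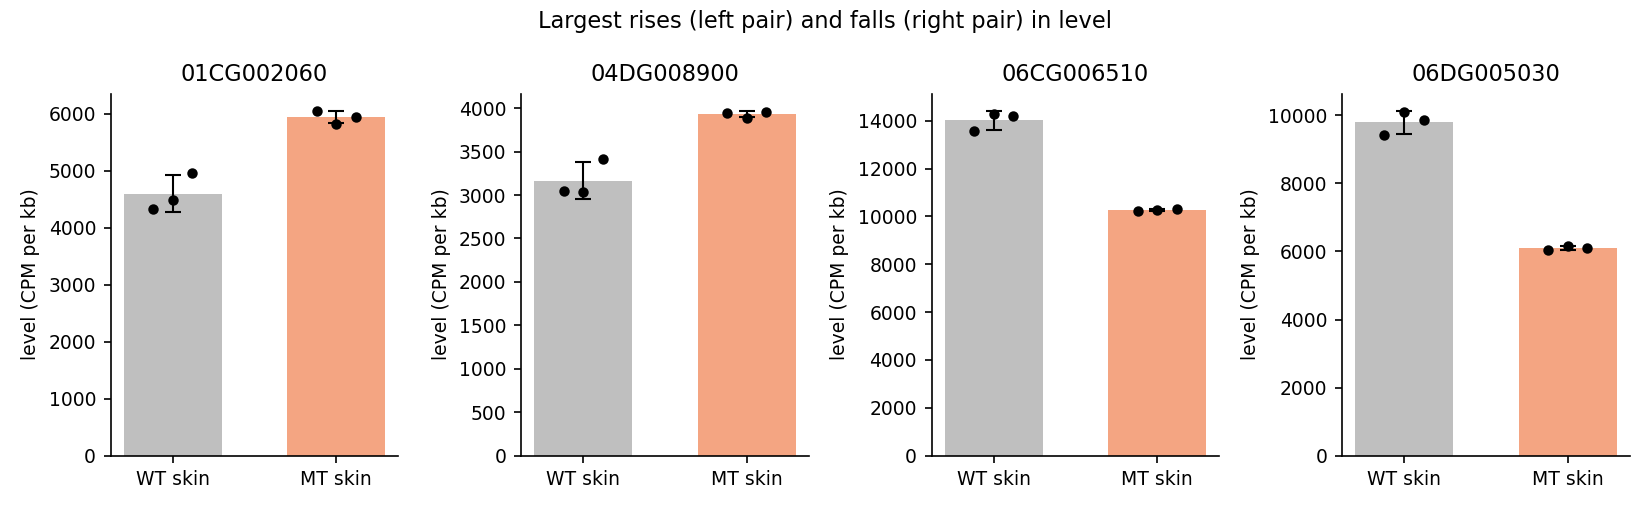
Level in CPM per kb (vertical axes from 0) of the 2 genes with the largest rise and the 2 with the largest fall in MT skin; bars are group means, error bars the SD of 3 libraries and points the libraries. In each panel the 3 MT points lie apart from the 3 WT points, and the changes are 1.24-fold to 1.61-fold.

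The 25 largest falls in level ran from small changes in very abundant genes to steep changes in less abundant ones. By the rule, these were called, did not overlap and were at least 300 bases long, and they were ranked by the difference in CPM per kb, so their differences are a description. Together they went from 52910, 54400 and 55370 CPM per kb in the WT skin libraries to 35600, 36060 and 35740 in MT skin, and they made up 37.2% of the summed fall of all called genes. The top 4 alone gave 65.2% of the fall of the 25, by changes of 1.33-fold to 1.61-fold. At the other end 9 of the 25 fell by more than 4-fold, and the other 12 fell by 1.29-fold to 2.51-fold. In 14 of the 25 the flesh level was under 1% of the skin level in both lines. Identifiers numbered 04 held 9 places, beside 9.38% of all called falls, and 0 were numbered 12, beside 14% of all called falls.

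Of the 9 steep falls 5 were numbered 04, and 3 of these, of letters A, D and F, had lengths of 739, 734 and 745 bases. This trio was singled out after the values were seen, and whether its members are copies of a single gene was not tested. The letter A gene stood at 452, 425 and 508 CPM per kb in WT skin and at 60.9, 60.8 and 74.1 in MT skin, 7.08-fold lower. The letter D gene went from 282, 310 and 324 to 27.9, 23.5 and 28.3, 11.5-fold lower, and the letter F gene from 255, 262 and 317 to 19.6, 22 and 27.4, 12.1-fold lower. In flesh the trio showed no such fall. There the letter A gene stood at 148 CPM per kb in WT and 187 in MT, the letter D gene at 50.5 and 59.2, and the letter F gene at 67.8 and 75.4. By edgeR's quasi-likelihood test the difference between the tissues was -3.16, -3.75 and -3.76 on the log2 scale, with adjusted p of 4.6e-09, 3.31e-09 and 2.47e-09. The skin libraries in that test had also singled out the trio, so its p-values are a description.

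The 25 largest rises were smaller in fold. Together they went from 28840, 29410 and 31270 CPM per kb in WT skin to 39150, 38710 and 38740 in MT skin, 17.1% of the summed rise of all called genes, with a median of 1.35-fold and 1 gene above 2-fold. In 10 of the 25 the MT flesh level was at least 5 times the WT flesh level, which held for 0 of the 25 falls. No share over all tested genes is given beside these flesh counts, so they are a description of the 2 lists. The test of a genotype difference that differs between the tissues was passed by 20 of the rises and 12 of the falls, against 4.55% of tested genes. That test uses the same skin libraries that chose these genes, so the counts are given without reading more from them. Identifiers numbered 07 held 7 of the 25 places among the rises, beside 5.13% of all called rises. Those numbered 01 held 5, beside 10.4%, and 0 were numbered 12, beside 14.5%.

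Called genes nearly missing from the skin of a line were mostly scarce in the skin of the other. There were 278 called genes with at most 3 counts over the 3 MT skin libraries, and their median level in WT skin was 0.917 CPM, with 2 above 10 CPM. The reverse held for 87 genes, with a median of 0.617 CPM in MT skin and 0 above 10 CPM. No share over all tested genes is given beside these counts of called genes, so they are a description. Against 3 counts per group, the 145 genes at 0 in MT skin were lower by a median bound of 6.04-fold and the 55 at 0 in WT skin higher by one of 5.11-fold. On average WT skin was read more deeply, at 11.6 M against 9.76 M counts, and at 9.88 M without WT skin replicate 2. The part of depth in these counts was not tested.

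Number 12 stood out among the 15 identifier numbers. Of its 6161 tested genes 425 were called higher and 360 lower, or 12.7%, while the other numbers lay between 5.13% for number 14 and 7.65% for number 01, beside 6.85% of all genes. The median fall was also larger on number 12, at 2.61-fold against 2.04-fold on the other numbers, whereas the median rise was 1.78-fold against 1.65-fold. The higher share held in every class of CPM per kb with more than 3 genes. It was 7.23% against 3.15% elsewhere at 1 to 3 CPM per kb, 29.9% against 14.3% at 10 to 30, and 59.3% against 43.1% at 100 to 300. At 300 CPM per kb or more number 12 had 3 genes, 1 of them called. Classed by CPM without length, the higher share held in every class under 300 CPM. At 300 CPM or more 7 of the 15 genes of number 12 were called (46.7%), against 61.1% of 324 elsewhere. Elsewhere the directions differed slightly between numbers. Rises made up the largest share of calls on number 02, at 59.1% (191 rises and 132 falls), and the smallest on number 08, at 40% (78 and 117). Number 08 was also lowest in its median log2 difference, at -0.041 ± 0.023 (SD within groups, n = 3), and its library medians did not overlap between the lines, as was also so for number 04. Under library totals the medians of all 15 numbers did not overlap, so that distinction depends on the scaling. The WT skin medians of number 08 were 0.008, 0.055 and 0.023 and the MT skin medians 0, 0 and -0.036.

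The letters differed little in their share of called genes. Shares called ran from 6.46% on letter D to 7.34% on letter F, and without number 12 from 6.1% on D to 6.54% on B. Letter F had the most rises, 573 against 422 falls, and 150 of its rises were on block 12F. Of the 90 blocks of a number and a letter, the 84 outside number 12 lay between 3.94% (11F) and 8.56% (13F) with a median of 6.29%, and the 6 of number 12 between 10.8% and 17.6%. Block 12F was the most changed, with 150 rises and 57 falls among 1173 genes. Its median log2 difference was 0.11 ± 0.025, with WT skin library medians of -0.071, -0.017 and -0.046 against 0.079, 0.083 and 0.041 in MT skin. Blocks 12B, 12C, 12D and 12E had more falls than rises. In 12E the median was -0.063 ± 0.022, and in 12D -0.044 ± 0.012, with no overlap of library medians in either, while 12A, 12B and 12C overlapped. Of the 84 blocks outside number 12, 11 (13.1%) also had library medians that did not overlap. With library totals in place of TMM this held for 64 of those 84 and for all 6 of number 12. The 926 tested genes outside these blocks were called in 4% of cases, 18 higher and 19 lower.

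**Figure D4:**
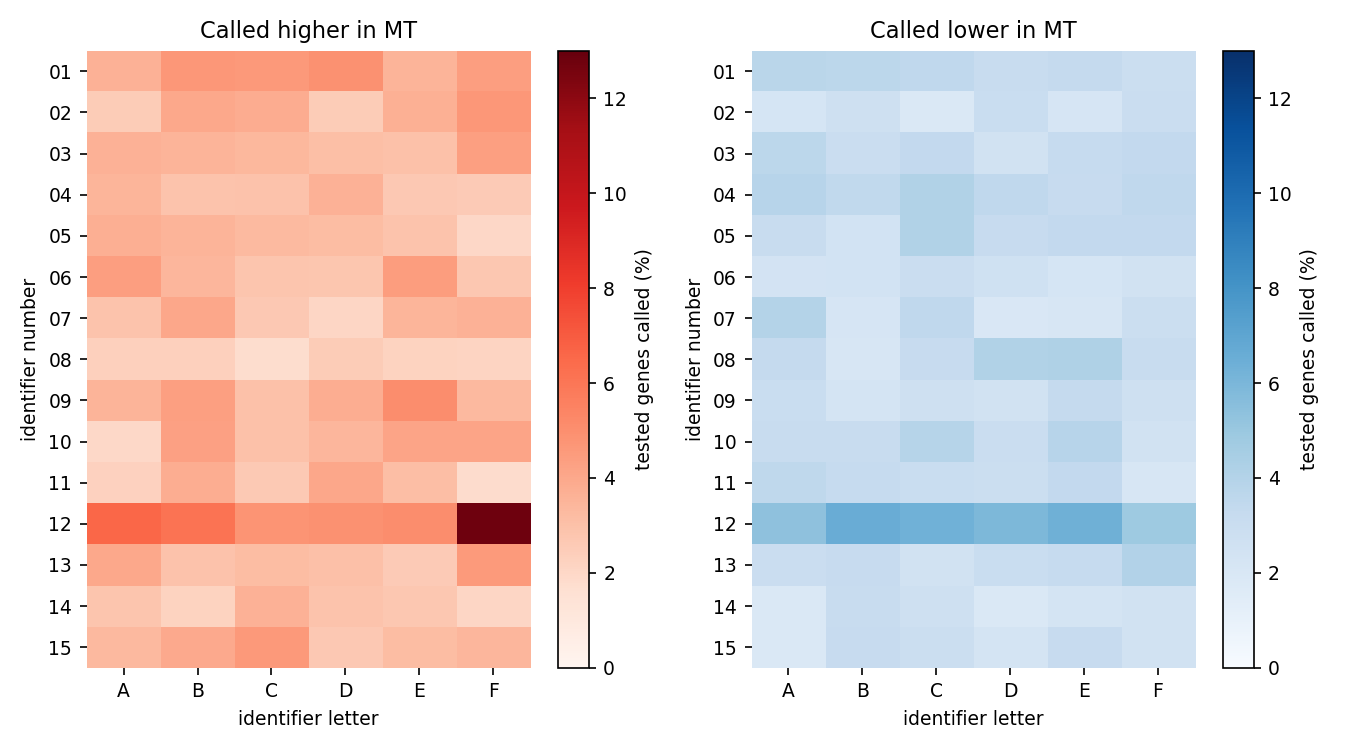
Percentage of tested genes called higher (left, red) and lower (right, blue) in MT skin for each identifier number (vertical axis) and letter (horizontal axis), on a shared scale from 0 to 13%. The row of number 12 is darkest in both panels, and block 12F reaches 12.8% higher and 4.86% lower.

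Called genes lay beside called genes of the same direction more often than beside those of the other. After a risen gene the next tested gene of the block had also risen in 9.09% of cases and had fallen in 2.96%, beside 3.66% and 3.22% of all genes in blocks. After a fallen gene the next had fallen in 6.65% and risen in 2.7%. On number 12 these same-direction shares were 18.1% and 15.3% beside 6.9% and 5.84% of its genes, and on the other numbers 7.54% and 5.23% beside 3.38% and 3% of their genes. Neighbouring genes that overlap or are near-identical could share reads, and the part of this was not tested.

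Along the blocks the changes gathered in stretches of number 12. The blocks were divided into 1547 windows of 50 tested genes in order of running number, the last window of a block taking the remainder. At least 20% of genes were called in 27 windows, of which 21 were on number 12; 13 of these held more rises and 8 more falls. The highest share outside number 12 was 24%, in a window of block 04C. In window 20 of block 12F, running numbers 25540 to 26210, 20 of 50 genes had risen and 1 had fallen. Its WT skin library medians were -0.25, -0.26 and -0.24 and the MT skin medians 0.27, 0.27 and 0.25 on the log2 scale. In window 3 of block 12B, running numbers 3330 to 4580, 2 genes had risen and 15 had fallen, with medians of 0.38, 0.42 and 0.49 in WT skin and -0.31, -0.43 and -0.44 in MT skin. The MT and WT skin medians of a window did not overlap in 72 of the 121 windows of number 12 (59.5%) and in 321 of the 1426 others (22.5%), beside 25.4% of all windows.

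The flesh levels were not part of the skin contrast that chose these windows, although the fit shares its estimate of the spread with them. They showed the same sign in all 21 of the high windows of number 12 and in 3 of the 6 elsewhere. Among all windows the signs were the same in 92 of the 121 of number 12 and in 677 of the 1426 others. Some of the 21 had skin differences near 0, where a sign says little. The skin difference was 0.006 in window 10 of 12E and 0.019 in window 17 of 12D, where the libraries overlapped in both tissues. The flesh medians of the lines did not overlap in 19 of the 21, beside 77 of the 121 windows of number 12 (63.6%) and 26.5% of all windows. Window 20 of block 12F had a median log2 difference of 0.55 in skin and 0.54 in flesh, and window 8 of that block, running numbers 9450 to 10470, had 0.51 and 0.54. Window 3 of block 12B was further down in skin, at -0.92, than in flesh, at -0.22. Over the 121 windows of number 12 the skin and flesh differences had a Pearson correlation of 0.86 (Spearman 0.86), and over the 1426 other windows one of 0.032 (Spearman 0.016). Windows of a block are not independent samples, and skin and flesh share the lines and the gene models but no library.

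**Figure D5:**
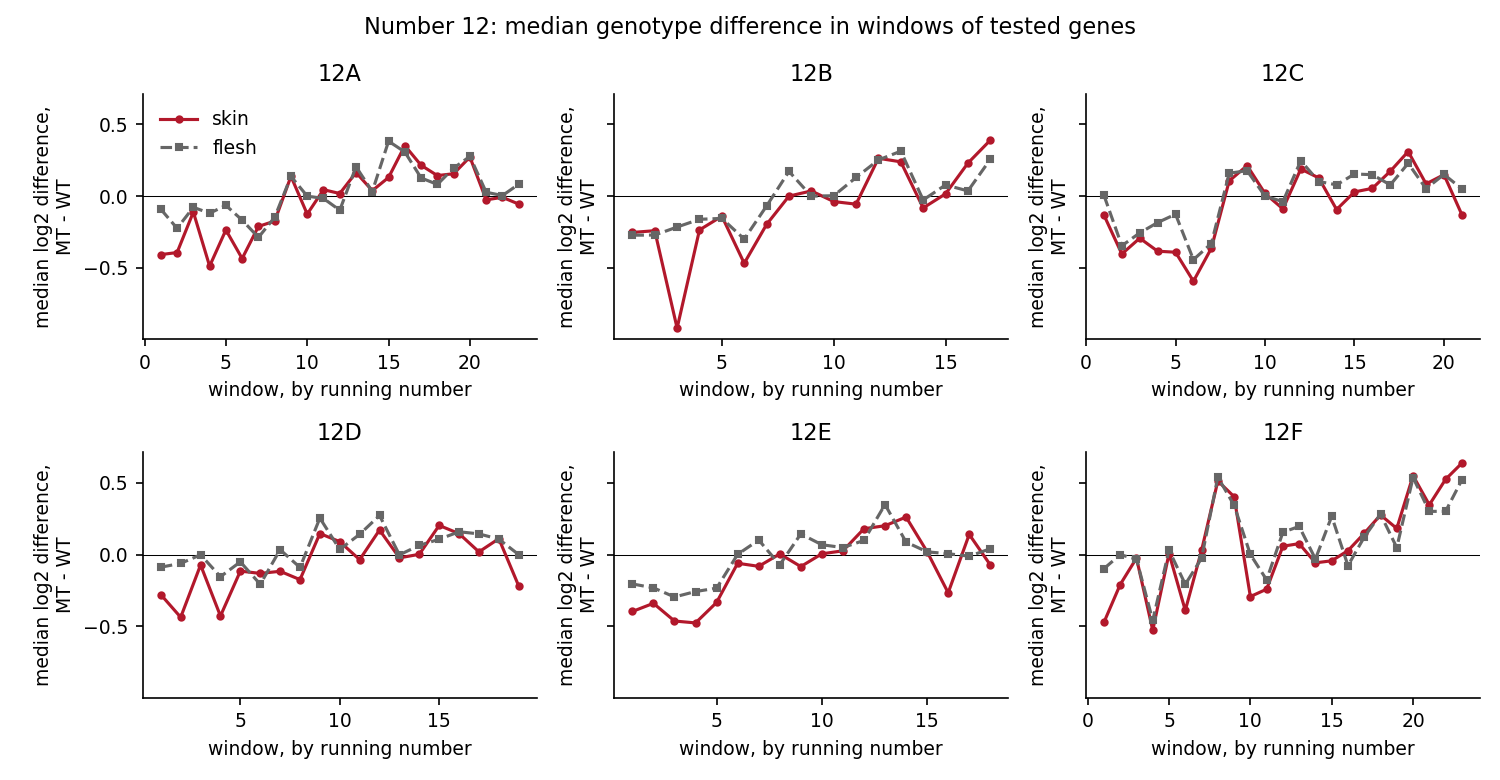
Median log2 difference, MT minus WT, of windows of tested genes (vertical axis) in order of running number (horizontal axis, window count) for the 6 letters of number 12; red circles are skin and grey squares flesh. Skin is below 0 in windows 1 to 7 of 12A to 12E and flesh in most of them, and in 12F skin and flesh reach 0.51 and 0.54 in window 8 and 0.55 and 0.54 in window 20.

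Gene length went with the calls as well. The share called was 3.3% of genes under 300 bases and 3.69% at 300 to 600 bases, and 7.13% to 7.5% in each class from 1000 bases upward. Short genes had fewer counts, with a median of 1.36 CPM under 300 bases against 4.51 CPM at 3000 bases or more. Rises made up 57.7% of the 71 calls under 300 bases, 43.5% at 300 to 600 bases, 39.9% at 600 to 1000 and 65.2% at 3000 or more. With library totals the last pair of shares became 33.1% and 57.1%.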

How the data were processed

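Per the file headers, the authors deposited whole-number counts for each gene and library, beside gene lengths. The submitters' processing notes list DESeq2 1.40.2, featureCounts and HISAT2 2.0.5 and assign them no step. The sources used here give no genome build, annotation, strand setting or treatment of multiply mapped reads. Of the deposited gene lengths 71.5% are multiples of 3, so many are coding lengths and levels per kb are approximate.

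Columns were matched to libraries by name, and 0 sample columns were left unused. Low-count genes were removed with filterByExpr (minimum count 10), leaving at least 99% of counts in each skin library. The 12 libraries were scaled by TMM and fitted as 4 groups with no replicate block in edgeR 4.0.16 (R 4.3.3). Tests used its quasi-likelihood test with Benjamini-Hochberg adjustment over all tested genes. The SE of a log2 fold change was approximated from edgeR's F statistic, as size over root F. Library medians are of log2 CPM, with a prior count of 2, minus the mean of each gene over the 6 libraries of its tissue. In the deepest skin library 3 counts are 0.221 CPM and in the shallowest 0.397 CPM; bounds cover counting error only. DESeq2 1.42.0 was an alternative. The fit was tested on simulated data with known changes of 2-fold and 4-fold. The share of 2-fold changes that it had to recover was lowered after a first run fell short of it, so 2-fold changes are missed more often than 4-fold ones. The simulated libraries varied less than the data, and only genes above a set mean count were changed. The simulation was therefore easier than the data and does not measure recovery among scarce genes.

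Members, levels, windows and gene sets were chosen with earlier results of these data known. With no names for the identifiers, the rule for named genes allowed 2 that rose and 2 that fell: called, groups not overlapping, at least 300 bases long, and ranked by the difference in CPM per kb. Windows, tissue-dominant sets, neighbours and length classes were added after the data were seen. No sequences are printed, since none could be tied to these identifiers.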

Additional observations from a re-analysis of the deposited data

Results flagged for a closer look

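For 3 of the 4 named genes the tissues differed in the size of the change between the lines. This was tested as an interaction over 12 libraries with edgeR's quasi-likelihood test. The skin libraries among them had also chosen these genes. The log2 fold change of skin less that of flesh was -8.96 (SE 0.14, adjusted p = 5.29e-14) for Ibat.Brg_v3.01CG002060 and -4.03 (SE 0.07, adjusted p = 9.7e-14) for Ibat.Brg_v3.04DG008900, which both rose slightly in MT skin and stood far higher in MT than in WT flesh. It was -1.01 (SE 0.14, adjusted p = 0.000563) for Ibat.Brg_v3.06DG005030, which fell in MT skin and is nearly absent from flesh. No group had the 4 or more libraries needed to look for outlying samples.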

How the results depend on the processing

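Under the alternatives run, every call shared with the main test kept its direction, and 59.5% (without WT skin replicate 2) to 97.8% (size factors of DESeq2 in edgeR) of the 5502 calls were made again. DESeq2 called 8482 genes in skin, 4758 of them higher, and 5822 for the interaction against 3653 by edgeR. Leaving out each library in turn gave 3583 to 5105 genes, 1912 to 2766 higher, 1671 to 2339 lower and 541 to 747 numbered 12, and 2696 to 3356 for the interaction. Same-numbered WT and MT libraries did not deviate together (correlations of -0.0076 to 0.018 in skin over 19350 genes), so the numbers showed no pairing of the lines within skin. Whether skin and flesh libraries of the same number are paired was not tested. A replicate block across the lines within each tissue gave 3702 calls, with 1666 lower. By CPM without length, 441 calls had a level under 1 and 756 a level of 100 or more, against 681 and 441 per kb. With library totals alone the median log2 differences moved down together: to -0.028 for number 12, -0.036 for number 14, -0.043, -0.041, -0.038, -0.044, -0.046 and -0.035 for letters A to F, -0.031, -0.035, -0.076 and -0.098 for 12A, 12B, 12D and 12E, and 0.070 for 12F. The lost call of 06CG006510 is given above; the other named genes kept theirs under all alternatives. At 1 to 3 CPM per kb the 10th percentile of called changes was 1.83-fold, against 1.18-fold at 300 or more.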
